A study of Homo sapiens with 6 samples.

Results

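The open chromatin regions of human chromosomes 16 and 22 were examined in sorted WA09 cells, a human embryonic stem cell line. Every region of the deposited table that lies on chr16 or chr22 was taken, which gave 3428 regions on chr16 and 1871 on chr22. Together these 5299 regions were 4.47% of the 118556 regions of the table. Within these chromosomes the regions were chosen by position alone, and each was then placed in a 5 Mb bin by its midpoint. Chromosomes 16 and 22 and the bins had themselves been chosen with earlier results of these data known. The tests that follow can therefore not be read as independent of that choice. A region is in the table only where pooled reads of the samples had been called as open, so the number of regions in a bin is a description of the calls and was not tested. The assay was FAST-ATAC: a transposase, Tn5, enters chromatin where DNA is exposed and inserts sequencing adapters at the cut ends. The groups were the GCTM-2highCD9highEPCAMhigh population (the high population) and the GCTM-2midCD9mid population (the mid population, titled low in the sample names). GCTM-2, CD9 and EPCAM are surface markers of undifferentiated cells, and the high population is the subset with the strongest marker staining. Both populations came from WA09 cells without genetic change or treatment given in the labels, with 3 biological replicates of each, and the EPCAM gate was used for the high population alone.

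Human chromosomes differ in base composition. Chromosomes rich in G and C hold many genes and many CpG islands, the CG-dense stretches at which a large part of promoters lie, and tend to be replicated early in S phase. Chromosome 22 is acrocentric, with its centromere near one end and a short arm of repeated sequence that holds ribosomal RNA genes, and chromosome 16 carries a block of heterochromatin next to its centromere. In GRCh38, chromosome 22 had a GC content of 47.0% and chromosome 16 of 44.6%, ranks 2 and 4 of the 24 chromosomes. With 11.4 and 10.5 protein-coding genes per Mb of sequenced bases, they ranked 3 and 4 for gene density. These values describe whole chromosomes, and no position was carried over from GRCh38 to hg19, the build of the counts. Genes are not named here because no hg19 annotation was used, so that the cells could not be checked against marker genes, and base sequences are likewise not shown. Regions are given by their hg19 position.

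Total counts in the regions were 15486251 to 26225539 in the high population and 23091028 to 29025274 in the mid population, so that the high libraries were shallower on the whole. The smallest count of any library in any region was 5 on chr16 and 6 on chr22. Counts were normalised with the TMM method in edgeR, which gave factors of 1.02 to 1.05 for the high libraries and 0.917 to 1 for the mid libraries. Same-numbered samples were treated as pairs unless stated otherwise. In a principal component analysis of the 5299 regions, the first component held 47.2% of the variance. The high replicates 1, 2 and 3 scored 27.01, 11.8 and 4.998 on it, and the mid replicates lay between -16.9 and -12.9. High replicate 1 lay farthest from the mid population and high replicate 3 nearest to it.

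Regions were distributed unevenly along both chromosomes. Chromosome 16 held 41.9 regions per Mb of sequenced bases of GRCh38 and chromosome 22 held 47.8, ranks 11 and 3 of the 24 chromosomes. The regions themselves were counted in hg19, so these densities mix the builds and are approximate. Chromosome 16 was thus near the middle in density although it ranked 4 for GC content. Over all chromosomes a 5 Mb bin held a median of 204 regions, with 197 as the median on chr16 (17 bins) and 250.5 on chr22 (8 bins). The densest bin of chr16 was the first, from 0 to 5 Mb, with 369 regions, and the next was the bin from 85 to 90 Mb, with 343. Only 3 of the 601 bins of the genome held more regions than the first bin of chr16. The densest bin of chr22, from 35 to 40 Mb, held 357 regions, and ranked 6 over the genome.

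The bins with the fewest regions lay at the chromosome ends, where the last bin of each chromosome is cut short. The last bin of chr16, from 90 Mb on, held 15 regions and ended with the last region at 90173314. The last bin of chr22, from 50 Mb on, held 82 regions. Away from the ends, chr16 was sparsest from 60 to 65 Mb, with 103 regions of a median width of 681 bp. Between the regions chr16:34380386-34381050 and chr16:46588149-46588932 lay 12.2 Mb without any region, the stretch that holds the centromere. This stretch parted 1490 regions on the short arm from 1938 on the long arm. On chr22 no region lay before 17538993, and the largest gap after that was 0.490 Mb.

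**Figure D1:**
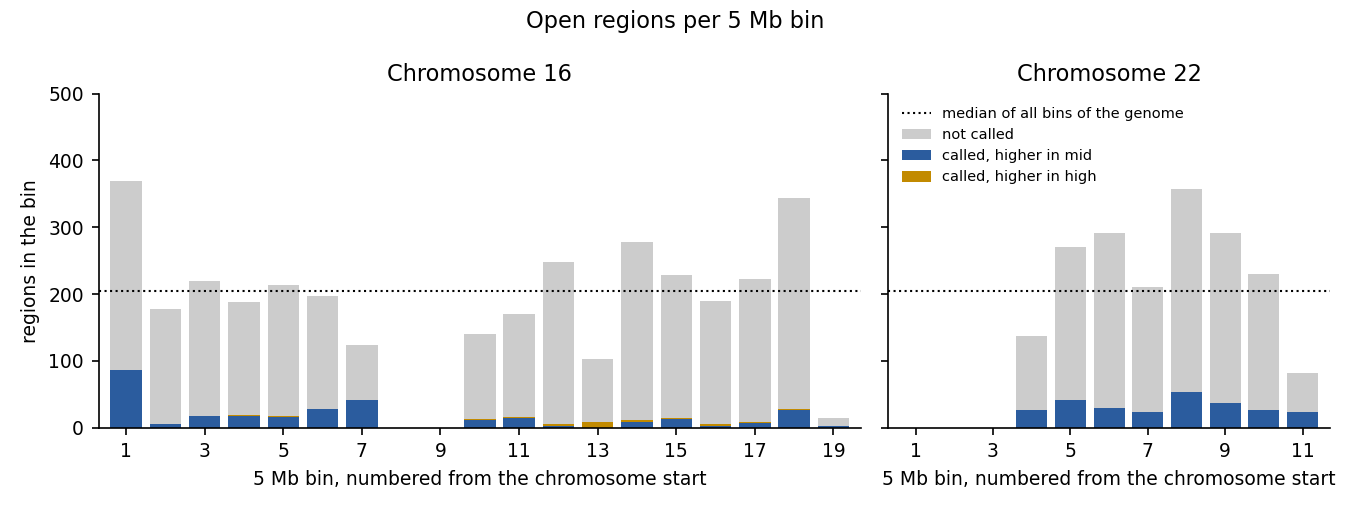
Number of open regions (y axis) in each 5 Mb bin, numbered from the chromosome start (x axis), on chromosomes 16 and 22. Each bar is the total, with regions called higher in the mid population in blue, those called higher in the high population in yellow, and the dotted line at 204, the median of all bins of the genome. Bins 8 and 9 of chromosome 16 and bins 1 to 3 of chromosome 22 hold no region.

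Regions of both chromosomes were wider and held more reads than those of the whole table. The median width was 947 bp on chr16 and 1060 bp on chr22, against 879 bp over all regions. At least 2150 bp, the 90th percentile of width over all regions, was reached by 14.2% of the regions on chr16 and 13.9% on chr22. Over the 6 libraries a region held a median of 625 reads on chr16 and 744 on chr22, against 546 over the table. Chromosomes 17 and 19 exceeded both, with a median width of 1122 bp, 18.2% of at least 2150 bp and a median of 863 reads. Within chr16, dense bins and wide regions did not always go together. The first bin had a median width of 1452 bp, whereas the bin from 30 to 35 Mb had 1497.5 bp with 124 regions.

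Whether the populations differed in how much of their accessible chromatin lay on these chromosomes was asked first from the share of counts. On chr16 lay 2.78%, 3.09% and 3.19% of the counts of high replicates 1, 2 and 3, and 3.51%, 3.67% and 3.51% of those of mid replicates 1, 2 and 3. All high libraries were below all mid libraries. The means were 3.02% ± 0.214 (SD, n = 3) and 3.56% ± 0.0952 (SD, n = 3). On chr22 lay 1.38%, 1.53% and 1.69% of the counts in the high replicates and 1.93%, 1.97% and 1.91% in the mid replicates. Again the populations did not overlap, with means of 1.54% ± 0.154 (SD, n = 3) and 1.94% ± 0.0325 (SD, n = 3). The 95% Wilson intervals of single libraries were at most 0.0172 percentage points wide, and cover counting error only. For both chromosomes the exact permutation test gave p = 0.1 (two-sided), the smallest that 3 samples against 3 allow. Between high and mid samples of a pair the difference was -0.724, -0.583 and -0.314 percentage points on chr16 and -0.549, -0.436 and -0.216 on chr22. The difference was largest in pair 1 and smallest in pair 3 on both chromosomes. High replicate 3, the deepest of the high libraries, had the shares nearest to those of the mid population. The part of depth in the result was not tested.

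**Figure D2:**
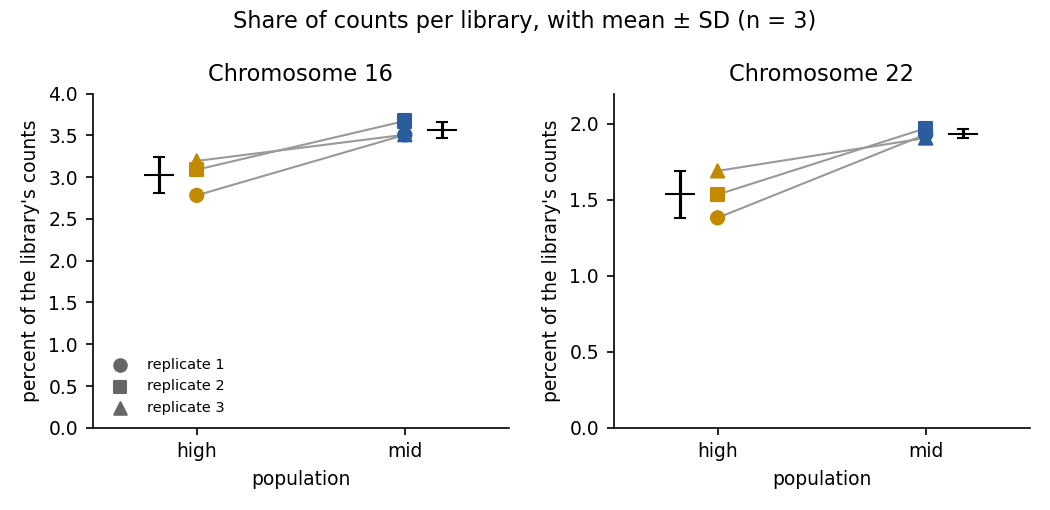
Percent of each library's counts (y axis, from 0) that lay on chromosome 16 (left) and chromosome 22 (right) in the high and mid populations (x axis). Points are libraries, lines join same-numbered replicates, and black marks give the mean ± SD (n = 3). On both chromosomes the 3 high libraries lie below the 3 mid libraries.

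The sums over each chromosome were then tested in 1 fit of all 24 chromosomes with edgeR's quasi-likelihood test. The chr16 total was lower in the high population with a log2 fold change of -0.33 (standard error, SE, 0.061), and the chr22 total with one of -0.43 (SE 0.080), and the edgeR adjusted p was 0.00816 for each. Of the 24 chromosomes, 33.3% were called lower in the high population at an adjusted p-value under 0.05 and 4.17% were called higher. Among those called lower was chrY, which held only 21 regions (log2 fold change -0.76, edgeR adjusted p of 0.0468). The pairs gave -0.48, -0.32 and -0.19 for chr16 and -0.63, -0.43 and -0.23 for chr22, all in the same direction. The spread of these 3 pairs alone gives a standard error of 0.085 for chr16 and 0.12 for chr22, wider than in the fit. The calls were lost without the pair of replicate 2, although the estimates hardly changed. Without that pair the estimates were -0.34 and -0.43, both with an adjusted p of 0.307. Without the high sample of the pair alone the adjusted p-values were 0.121 for chr16 and 0.151 for chr22, and without the mid sample alone both were 0.298.

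Other chromosomes with much G and C also had negative totals. Chromosomes 17 and 19 were set beside chr16 and chr22 as the most similar, and chromosomes 4 and 13 as those with the lowest GC content. Their totals differed by -0.38 (chr17), -0.61 (chr19), 0.16 (chr4) and 0.07 (chr13) on the log2 scale. Over the 22 autosomes the log2 fold change of the total went with GC content with a Pearson's r of -0.949 and a Spearman's rho of -0.946. For protein-coding genes per Mb these were -0.829 and -0.890, and for regions per Mb -0.424 and -0.466. Regions per Mb again set hg19 regions over GRCh38 bases. All chromosomes share the same 6 libraries, so these are descriptions across chromosomes and have no p-value. Base composition and gene density both moved with the result in this way, and their part in it was not tested.

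**Figure D3:**
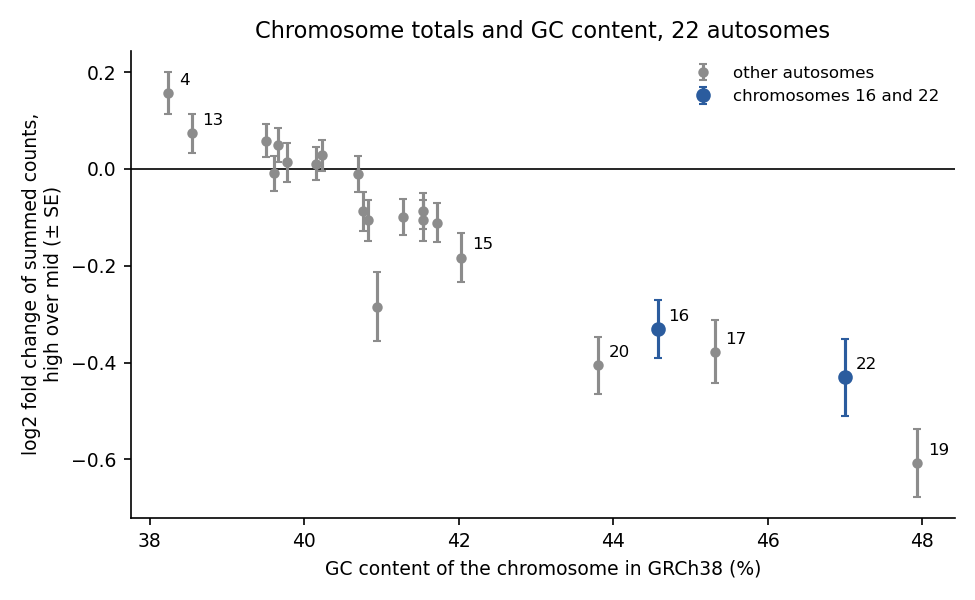
Log2 fold change of summed counts of the high over the mid population (y axis, ± standard error of the edgeR fit) against the GC content of the chromosome in GRCh38 (x axis, percent) for 22 autosomes. Chromosomes 16 and 22 (blue) lie among the negative values at high GC content, with chromosomes 17 and 20 near them and chromosome 19 lowest.

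Relative to chromosomes 17 and 19, chr16 was less reduced in the high population. The log2 ratio of chr16 counts to those of chromosomes 17 and 19 was -1.33, -1.30 and -1.34 in high replicates 1, 2 and 3 and -1.51, -1.48 and -1.47 in the mid replicates. Every high library had the higher ratio, and the means differed by 0.16. For chr22 the same ratio was -2.34, -2.31 and -2.26 in the high replicates and -2.37, -2.38 and -2.35 in the mid replicates. These also did not overlap, but the means differed by 0.06 only. Against chromosomes 4 and 13 both were lower in the high population, by 0.46 for chr16 and by 0.56 for chr22 on the log2 scale, again without overlap. The ratio of chr22 to chr16 was lower in the high population in all 3 pairs, by 0.15, 0.11 and 0.04. The 10 comparisons of shares and ratios include the shares of counts above and the splits of chr16 below. In each of them the exact permutation test (two-sided) gave p = 0.1, the smallest possible, and an adjusted p of 0.1.

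Single regions were tested in 1 fit of all 118556 regions, and regions were called at 0.01 after Benjamini-Hochberg adjustment. On chr16, 304 regions (8.87%) were more accessible in the mid population and on chr22 262 regions (14%), against 3.77% over all regions. More accessible in the high population were 25 regions of chr16 (0.729%) and 2 of chr22 (0.107%), against 2.32% over all regions. Mid calls were thus more frequent than over the table on both chromosomes, and high calls less frequent. On chromosomes 17 and 19 the mid and high shares were 20% and 0.223%. Of the 566 mid regions 564 went the same way in all 3 pairs, as did 25 of the 27 high regions. Over the table these were 4459 of 4472 mid and 2736 of 2747 high regions, so such agreement was general among called regions. Most of the changes were small. More than a 2-fold change was seen in 21 of the mid regions on chr16 (6.91%) and 11 on chr22 (4.2%), against 6.44% over the table. The median log2 fold change of the mid regions was -0.67 and -0.68, against -0.66 over the table. Changes of this size were thus usual for mid regions of the whole table.

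Called and uncalled regions together were also shifted. The median log2 fold change was -0.21 on chr16 and -0.35 on chr22, against 0.03 over all regions. The log2 fold change was negative in 74.2% of the regions of chr16 and 87.8% of those of chr22, and in 46.5% of all regions. On chromosomes 17 and 19 the median was -0.35 and 84.5% of the regions were negative. In the single pairs the medians were -0.36, -0.21 and -0.10 on chr16 and -0.51, -0.38 and -0.16 on chr22. When each chromosome was given its own TMM offsets, which sets the middle of each chromosome near 0, 101 mid and 82 high regions were called on chr16 and 22 mid and 15 high regions on chr22. Mid calls were then 2.95% of the regions of chr16 and 1.18% of those of chr22, against 3.01% over all regions, so that neither chromosome exceeded the table. The medians were 0.04 on chr16 and 0.02 on chr22. High regions then made up 44.1% of the calls on the 2 chromosomes, against 4.55% with a single scaling. With no replicate block, 105 mid and 5 high regions were called on chr16 and 65 mid regions on chr22. The mid shares were 3.06% and 3.47%, against 1.11% over all regions. Without replicate 2 there were 32 mid calls on chr16 and 18 on chr22, which was 0.933% and 0.962% of their regions, against 0.369% over the table.

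Along chr16 the difference was not even. Counts were summed over each 5 Mb bin and all 601 bins of the genome were tested together, with an adjusted p-value under 0.05 as the threshold. Of the 17 bins of chr16, 11 were called higher in the mid population and 1 was called higher in the high population. Of the 8 bins of chr22 all 8 were called higher in the mid population. Over the genome 22.8% of the bins were called in the mid and 26.1% in the high direction. On chr16, 16 bins were lower in every high library than in every mid library, as were all 8 bins on chr22, against 33.8% of all bins. All 3 pairs were negative in the same 24 bins, against 39.9% of all bins and 93.1% of the bins of chromosomes 17 and 19. Without replicate 2, the called mid bins fell to 3 on chr16 and 2 on chr22. The share of all bins called in that fit is not given, so these counts cannot be set against the genome.

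The bin with the lowest log2 fold change was that from 30 to 35 Mb on chr16, next to the centromere on the short arm. In CPM (reads per 1000000 TMM-scaled reads of a library), it had 1399, 1553 and 1825 in high replicates 1, 2 and 3 and 2491, 2485 and 2337 in the mid replicates. Every high library lay below every mid library, with high replicate 3 the closest. The log2 fold change was -0.62 (SE 0.067, edgeR adjusted p of 2.63e-17), rank 9 from the lowest of 601 bins. Its 3 pairs differed by -0.83, -0.68 and -0.36, and their spread alone gives a standard error of 0.14. In this bin 42 of 124 regions (33.9%) were called higher in the mid population.

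The opposite was found in the sparse part of the long arm. In the bin from 60 to 65 Mb the CPM were 480.1, 431 and 388 in the high replicates and 336, 350.2 and 375 in the mid replicates. All high libraries lay above all mid libraries, though high replicate 3 and mid replicate 3 were close. The log2 fold change was 0.29 (SE 0.11, edgeR adjusted p of 0.0236), and the call was lost without replicate 1, without replicate 2 or without any 1 sample of these pairs. Of its 103 regions 8 (7.77%) were called higher in the high population, which is 8 of the 25 such regions of chr16. Regions in this bin were narrow and held few reads, with 3.82 CPM per region on average against 16.2 in the bin from 30 to 35 Mb.

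**Figure D4:**
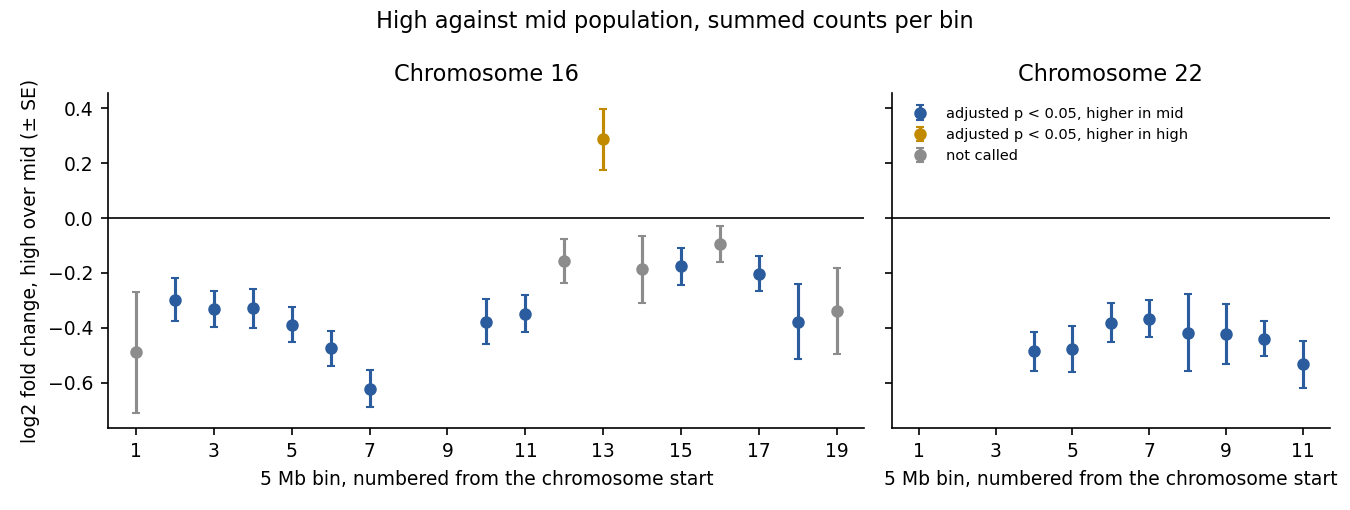
Log2 fold change of the high over the mid population (y axis, ± standard error of the edgeR fit) for the counts summed in each 5 Mb bin, numbered from the chromosome start (x axis). Blue and yellow points passed an adjusted p-value of 0.05 and grey points did not. Chromosome 16 falls to -0.62 in bin 7 and rises to 0.29 in bin 13, whereas the 8 bins of chromosome 22 stay between -0.53 and -0.37.

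The arms of chr16 differed in their share of the counts. The log2 ratio of short-arm to long-arm counts was -0.40, -0.32 and -0.27 in high replicates 1, 2 and 3 and -0.11, -0.09 and -0.13 in the mid replicates. Every high library had the lower ratio, with a mean difference of -0.22, and all 3 pairs went this way (p = 0.1 in the two-sided exact permutation test, which can go no lower). Of the regions on the short arm 214 of 1490 (14.4%) were called higher in the mid population and 3 higher in the high population. On the long arm these were 90 of 1938 (4.64%) and 22. The median log2 fold change was -0.31 on the short arm and -0.13 on the long arm. Of the bins of chr16, that from 75 to 80 Mb was closest to 0, at -0.09 (SE 0.066, edgeR adjusted p of 0.222). The ratio of the bins from 30 to 35 Mb and from 60 to 65 Mb to the rest of chr16 also did not overlap between the populations. Mean differences were -0.31 and 0.63. Both bins had been picked for the lowest and highest log2 fold change of chr16 in these same libraries. The missing overlap is therefore no separate support. These splits of chr16 were made after the data were examined.

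On chr22 the bins resembled each other more. Their log2 fold changes ran from -0.53 in the last bin, from 50 Mb on, to -0.37 in the bin from 30 to 35 Mb. The last bin had CPM of 749, 765 and 822 in the high replicates and 1158, 1168 and 1056 in the mid replicates, without overlap (SE 0.085, edgeR adjusted p of 3.30e-08). Of its 82 regions 23 (28%) were called higher in the mid population. In the densest bin, from 35 to 40 Mb, CPM were 2974, 3291 and 3628 in the high replicates and 4813, 4199 and 4185 in the mid replicates. That bin also did not overlap between the populations, with a log2 fold change of -0.42 (SE 0.14, edgeR adjusted p of 0.00936). The spread of the pairs gives standard errors of 0.086 to 0.15 for the bins of chr22, so that their order is not resolved.

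The number of regions in a bin did not order the bins by their change on chr16. Across its 17 bins the number of regions and the log2 fold change had a Pearson's r of -0.164 and a Spearman's rho of 0.0343. Across the 8 bins of chr22 the values were 0.647 and 0.575, in the direction of smaller reductions in bins with more regions. The bins of chr22 with the fewest regions were its first and last, with 137 and 82 regions and log2 fold changes of -0.49 and -0.53. Regions of chr22 began at 17538993 and ended at 51222824, so both bins were filled only in part. No relation to density can be read from these values. Over all 601 bins Pearson's r was -0.122 and Spearman's rho -0.247. The median width of a bin's regions went with the log2 fold change with a Spearman's rho of -0.380 on chr16, -0.381 on chr22 and -0.641 over all bins. Bins share the same libraries and neighbour each other, and these correlations are descriptions. The first bin of chr16 was the densest, and its CPM were 4385, 4983 and 5260.02 in the high replicates and 7122, 6923 and 6443 in the mid replicates. All high libraries lay below all mid libraries. Its log2 fold change of -0.49 was the lowest of chr16 after that of the bin from 30 to 35 Mb. The bin was not called (SE 0.22, edgeR adjusted p of 0.0536), although 87 of its 369 regions (23.6%) were. Its pairs differed by -0.70, -0.47 and -0.29, and their spread alone gives a standard error of 0.12, narrower than in the fit.

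Width went with the calls on both chromosomes. Among regions of at least 2150 bp, 182 of 488 (37.3%) were called higher in the mid population on chr16 and 139 of 261 (53.3%) on chr22, against 21.0% on all other chromosomes. From 1334 to under 2150 bp these shares were 14.9%, 17.3% and 5.81%. From 879 to under 1334 bp they were 1.34% on chr16, 6.24% on chr22 and 1.19% elsewhere, so that chr16 was close to the other chromosomes in this class. From 663 to under 879 bp they were 2.35%, 3.61% and 0.474%, and below 663 bp 0.902%, 2.48% and 0.439%. On chromosomes 17 and 19 the shares from the widest class to the narrowest were 62.1%, 28.5%, 6.05%, 3.43% and 1.34%. In the classes from 1334 bp on, chr16 and chr22 were both below these. The median log2 fold change was below that of the other chromosomes in each of the 5 classes, from -0.42 to -0.11 on chr16, from -0.52 to -0.26 on chr22 and from -0.21 to 0.12 elsewhere. With loess offsets on width in place of TMM alone, 194 mid regions (5.66%) were called on chr16 and 183 (9.78%) on chr22, against 2.45% over all regions, with medians of -0.21 and -0.34. With the widest regions left out, the chromosome totals differed by -0.21 for chr16 (edgeR adjusted p of 0.00121) and -0.35 for chr22 (edgeR adjusted p of 0.000299).

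**Figure D5:**
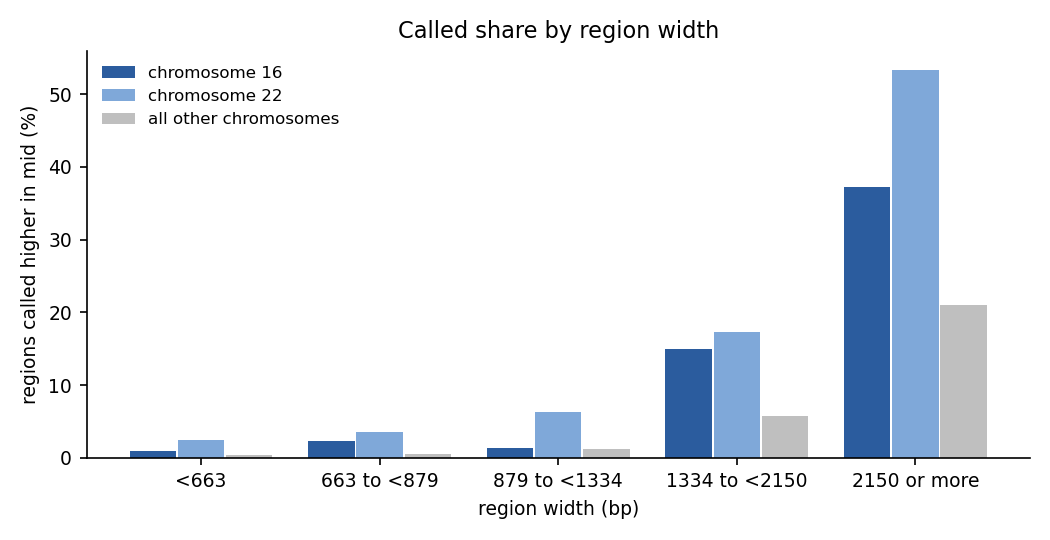
Percent of regions called higher in the mid population (y axis, from 0) in 5 classes of region width in bp (x axis) on chromosome 16, chromosome 22 and all other chromosomes. The share rises with width in the 2 widest classes, to 37.3% on chromosome 16 and 53.3% on chromosome 22 against 21.0% elsewhere. Chromosomes 17 and 19, pooled here with the others, had 62.1% in the widest class.

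The calls also went with the spacing between regions. Regions were split at the quartiles of the distance to the nearest region over the table, 3.20, 6.89 and 13.9 kb. Of the regions nearer than 3.20 kb to another, 11% on chr16 and 16.4% on chr22 were called higher in the mid population, against 5.11% over all regions. Of those with no region within 13.9 kb, 5.76% and 12.5% were called, against 1.86%. The share fell in each class with distance on chr16, whereas on chr22 the 2 classes of the widest spacing had 12.1% and 12.5%. Regions without a close neighbour were also narrower, with a median of 809 bp on chr16 and 886.5 bp on chr22.

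Some called regions were neighbours. On chr16, 119 of the 304 mid regions lay in 45 runs of 2 or more neighbouring called regions, and on chr22 83 of the 262 lay in 36 runs. These are 39.1% and 31.7% of the mid regions, against 38.6% over the table, which is close for chr16 and higher than on chr22. On chromosomes 17 and 19 it was 56%. The share of regions called differed, at 8.87% on chr16, 14% on chr22, 3.77% over the table and 20% on chromosomes 17 and 19. The shares in runs were not adjusted for this. The longest run, found after the values were seen, held 8 regions within 40.2 kb on chr16, from 73065816 to 73106011. Their log2 fold changes ran from -0.83 to -0.53. It lay in the bin from 70 to 75 Mb, whose total had a log2 fold change of -0.18. On chr22 the longest run held 4 regions within 72.6 kb, from 24128468 to 24201085.

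The regions of chr16 with the smallest p-values for higher accessibility in the mid population lay close together around 30 Mb. The smallest p-value belonged to chr16:30668403-30671280, of 2878 bp. It had 38.3, 44.8 and 40.3 CPM in high replicates 1, 2 and 3 and 92.3, 89.2 and 78.2 CPM in the mid replicates. All mid libraries were well above all high libraries. The log2 fold change was -1.07 (SE 0.12, edgeR adjusted p of 1.03e-08), and 23 of the 118556 regions had a smaller p-value. Next came chr16:30932303-30936612, with 48.8, 56.8 and 61.2 CPM in the high replicates and 106, 123 and 109 CPM in the mid replicates. This region of 4310 bp also did not overlap between the populations, with a log2 fold change of -1.02 (SE 0.12, edgeR adjusted p of 1.42e-08). The remaining ones were chr16:29814949-29819854 and chr16:31189848-31193562, with log2 fold changes of -0.97 and -0.98. These 4 regions were at least 2878 bp wide, above the 90th percentile of the table.

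On chr22 the smallest p-value in the mid direction belonged to chr22:50351359-50357538, a region of 6180 bp in the last bin. It had 38.5, 37.3 and 34.9 CPM in the high replicates and 82.9, 74.4 and 65.1 CPM in the mid replicates. The populations were far apart, with a log2 fold change of -0.9998 (SE 0.12, edgeR adjusted p of 6.00e-08). The region chr22:45401638-45406856 had 41.1, 45.2 and 32.0 CPM in the high replicates and 82.4, 76.1 and 63.1 CPM in the mid replicates. It did not overlap either, with a log2 fold change of -0.91 (SE 0.12, edgeR adjusted p of 3.59e-07). Next was chr22:24128468-24130261, the first region of the run of 4, with a log2 fold change of -1.02, followed by chr22:38900568-38903451 with -0.94. These regions and the 4 of chr16 before them stayed called in every alternative run.

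By size of change, the leading mid regions were narrow and held few reads. On chr16 these were chr16:14447055-14447708, chr16:4258156-4258686 and chr16:26145868-26146298, with log2 fold changes from -1.42 to -1.40 and 167 to 472 reads over the 6 libraries. The second of them had 2.34, 1.91 and 1.22 CPM in the high replicates and 4.51, 6.92 and 3.33 CPM in the mid replicates. Its populations did not overlap, but the mid libraries varied by more than 2 CPM (edgeR adjusted p of 2.03e-05). On chr22 the largest were chr22:35033887-35034320, chr22:22776921-22777429 and chr22:46881108-46881705, from -1.41 to -1.16, with 154 to 262 reads and adjusted p-values from 0.00466 to 0.00910. Leaving out a replicate ended the call of each of these 6 regions in at least 1 case. Without replicate 2 the edgeR adjusted p-values of the 3 on chr22 were 0.212, 0.063 and 0.110, and on chr16 that of chr16:4258156-4258686 was 0.0189.

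Regions more accessible in the high population were few. The smallest p-value among them belonged to chr16:65158373-65159015, of 643 bp, with 35.4, 18.0 and 13.1 CPM in high replicates 1, 2 and 3 and 6.53, 8.48 and 9.62 CPM in the mid replicates. Every high library lay above every mid library, but the high libraries were spread from 13.1 to 35.4 CPM. The log2 fold change was 1.32 (SE 0.19, edgeR adjusted p of 2.58e-06). A more even difference was seen at chr16:59244561-59245652, with 13.1, 9.84 and 11.04 CPM in the high replicates and 4.66, 5.28 and 5.52 CPM in the mid replicates. Its log2 fold change was 1.13 (SE 0.18, edgeR adjusted p of 9.93e-06). The largest change was at chr16:12320042-12320701, with 5.71, 4.43 and 2.52 CPM against 1.05, 1.34 and 1.57 CPM and a log2 fold change of 1.60 (SE 0.27). At chr16:20517520-20518009 it was 1.51 (SE 0.26). Replicate 1 had much weight here: without it the value was 0.73 at chr16:65158373-65159015, which stayed called, and 0.80 at chr16:20517520-20518009, which did not (edgeR adjusted p of 0.0295). DESeq2 called neither of them (adjusted p of 0.0997 and 0.138).

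On chr22 only chr22:30501199-30501825 and chr22:48457814-48458490 were called in the high direction. The first had 11.9, 6.03 and 4.52 CPM in the high replicates and 2.67, 4.24 and 2.91 CPM in the mid replicates. High replicate 3 was only slightly above mid replicate 2 (log2 fold change 1.11, SE 0.22, edgeR adjusted p of 0.000340). The second had 5.76, 4.12 and 1.33 CPM in the high replicates and 1.54, 1.90 and 1.53 CPM in the mid replicates. Here high replicate 3 lay below all mid libraries, and the log2 fold change of 1.01 (SE 0.27, edgeR adjusted p of 0.00896) was positive in 2 of 3 pairs. Both calls were lost without replicate 1, with values of 0.55 and 0.49 (edgeR adjusted p of 0.113 and 0.361), and the second also without replicate 2 (edgeR adjusted p of 0.124).

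By CPM per kb, the most densely read region was chr16:5146500-5149432 on chr16, with 77.3, 68.0 and 59.6 CPM in the high replicates and 110.1, 93.2 and 87.4 CPM in the mid replicates. The populations did not overlap, with a log2 fold change of -0.51 (SE 0.11, edgeR adjusted p of 0.00144). On chr22 it was chr22:29998696-30000377, with 29.5, 32.2 and 42.4 CPM in the high replicates and 52.3, 43.0 and 51.2 CPM in the mid replicates. High replicate 3 and mid replicate 2 were nearly equal there, and the log2 fold change was -0.50 (SE 0.13, edgeR adjusted p of 0.00518). Neither call held without replicate 2 (edgeR adjusted p of 0.132 and 0.148), and that on chr22 was also lost without replicate 1 (edgeR adjusted p of 0.0299). With loess offsets on average log2 CPM the values were -0.18 and -0.27, and neither was called.

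The widest regions were the following. The widest on chr16, chr16:54315358-54323959 of 8602 bp, had 69.4, 61.0 and 60.7 CPM in the high replicates and 110.5, 110.6 and 97.9 CPM in the mid replicates. It was lower in all high libraries, with a log2 fold change of -0.74 (SE 0.11, edgeR adjusted p of 6.35e-06). That call was lost without replicate 2 (-0.68, edgeR adjusted p of 0.0364) and with loess offsets on width (-0.23, edgeR adjusted p of 0.142). The widest on chr22, chr22:39704281-39711505 of 7225 bp, had 46.9, 52.1 and 64.7 CPM in the high replicates and 70.04, 50.03 and 48.7 CPM in the mid replicates. These values overlapped, with mid replicate 1 the highest and high replicate 1 the lowest of the 6. Its log2 fold change of -0.03 (SE 0.13, edgeR adjusted p of 0.895) compares with -0.42 for the total of its bin, and it turned positive in 7 of the alternative fits, among them those without replicate 1 (0.22) and with loess offsets on width. In the latter it was called higher in the high population, at 0.43 (edgeR adjusted p of 0.00891).

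Of the regions beside the gap of chr16, the one on the short arm had a log2 fold change of -0.66 (SE 0.21, edgeR adjusted p of 0.0313) and the one on the long arm 0.32 (SE 0.21, edgeR adjusted p of 0.332). Neither was called, and the short-arm value depended on the replicates. It was -0.85 without replicate 1, where it was called (edgeR adjusted p of 0.00610), and -0.35 without replicate 3, where it was not (edgeR adjusted p of 0.389). Beside the largest gap of chr22 the values were 0.47 for chr22:47564899-47565619 and -0.58 for chr22:48055251-48055767 (edgeR adjusted p of 0.219 and 0.239). The second of these was -0.0040 without replicate 2 and -1.05 without replicate 3, and was called in neither fit.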

How the data were processed

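FAST-ATAC had been performed on sorted WA09 cells. The authors trimmed reads, aligned them to hg19 with bwa (0.7.15 in the submitters' processing notes), removed duplicates and moved each read to its Tn5 cut site. They pooled the alignments of the replicates, called regions on them with MACS, joined both populations' regions into 1 set, took out blacklisted stretches and quantified each region with bedtools. What was deposited is a table of raw counts, by region and library. Calls in single replicates are not known. The paper used batch as a covariate without giving its coding. Starts were read as 0-based and are printed 1 higher.

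Samples were grouped by their surface markers. All 118556 regions were fitted with edgeR 4.0.16 under R 4.3.3, using TMM scaling, the quasi-likelihood test and a replicate block without a filter, with a threshold of 0.01 on p-values adjusted by Benjamini-Hochberg. Deviations of same-numbered samples correlated with r of 0.191 to 0.302 over all regions (differently numbered -0.257 to 0.0599), so numbers were taken as pairs. Bins of 5 Mb and chromosomes were summed and fitted with the library sizes of the regional TMM (threshold 0.05). DESeq2 1.42.0 and limma 3.58.1 (loess span 0.3) served for alternatives, and scipy 1.17.1 for Wilson intervals. The fits were tested on simulated data.

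Regions named were, per chromosome and direction, the 4 with the smallest p-value and the 3 with the largest change among called regions whose pairs all changed that way, plus the most densely read region, the widest and those beside the largest gap. The chromosomes, bins and lists were chosen with earlier results of these data known.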

Additional observations from a re-analysis of the deposited data

How the results depend on the processing

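The counts of called regions changed by over 1.5 times with the block, with offsets per chromosome and without replicate 2. Against 304 mid and 25 high regions on chr16 and 262 and 2 on chr22 (edgeR's quasi-likelihood test), no replicate block gave 105, 5, 65 and 0, with 7 regions of chr22 higher in the high population at an unadjusted p under 0.05. At a threshold of 0.05 there were 559, 48, 467 and 5. The mid shares were then 16.3% on chr16 and 25% on chr22, against 7.08% over all regions. With offsets per chromosome there were 101, 82, 22 and 15. Loess offsets on width gave 194 mid regions on chr16. High regions on chr22 numbered 1 with RLE size factors, upper quartile scaling or loess offsets on average log2 CPM, and 0 with DESeq2 (3 at an unadjusted p under 0.05), which called 6 high regions on chr16. Over all 118556 regions these fits called 2465, 2366, 3793 and 990 high regions, in the order given. Over the 9 fits that left out a pair or a sample, mid calls ran from 32 to 392 on chr16 and from 17 to 329 on chr22, and high calls from 10 to 26 and from 1 to 4. The mid shares ran from 0.933% to 11.4% on chr16 and from 0.909% to 17.6% on chr22. Over all regions they ran from 0.364% to 4.64%, and high calls from 371 to 3815. The medians ran from -0.29 to -0.14 on chr16 and from -0.45 to -0.26 on chr22.

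Called mid bins ran from 3 to 13 on chr16 and from 2 to 8 on chr22 in these 9 fits, and called high bins on chr16 from 0 to 1. The shares of all bins called in these fits are not given. The high bin of chr16 was also not called (0) with upper quartile scaling, 10 Mb bins, bins shifted by 2.5 Mb (0 bins at an unadjusted p under 0.05 in each) or a threshold of 0.01 (1 bin at an unadjusted p under 0.05). With 2 Mb bins 23 of 41 were called in the mid direction on chr16 and 18 of 18 on chr22, against 21.1% of all such bins, and with 10 Mb bins 5 of 5 on chr22, against 26.9%. A bin dispersion without a trend, added after the data were examined, gave 12 mid bins and 1 high bin on chr16 and 8 mid bins on chr22. Of all 601 bins it gave 141 mid and 155 high. Chromosome totals ran from -0.40 to -0.25 for chr16 and from -0.53 to -0.33 for chr22, with adjusted p of 0.121 to 0.307 in the 3 fits without replicate 2 or 1 of its samples, and all negative. The share differences over left-out pairs ran from -0.653 to -0.448 percentage points on chr16 and from -0.493 to -0.326 on chr22. The cause was not tested.

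Of the 28 regions named, chr22:39704281-39711505 changed direction in 7 fits: to 0.057 with total counts only, 0.22 without replicate 1, 0.21 without high replicate 1, 0.24 without mid replicate 1 or with loess offsets on average log2 CPM, 0.43 with loess offsets on width, where it was called higher in the high population, and 0.34 with offsets per chromosome. In the 19 alternatives run on single regions, 0 called regions of either chromosome switched to a call the other way. The smallest library held 15486251 reads, and regions with few reads have the widest errors.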
